A study of Mus musculus with 12 samples.

Results

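The septins of CT-26 tumors were examined. Of the 30630 genes listed for the 12 tumors, 7 septin genes were taken by symbol, Sept2, Sept6, Sept7, Sept8, Sept9, Sept10 and Sept11. They stand under 8 gene identifiers, because Sept2 has 2, and all 8 passed the filter on low values. The genes are named Septin2, Septin6 and so on in newer annotations. The family was taken up because of Sept2, whose difference between the groups and whose division between its 2 identifiers were already known from these tumors. The values of Sept2 are therefore given as a description with no test.

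CT-26 cells, a mouse line derived from a colon carcinoma, had been injected in Matrigel under the skin of the right flank of male BALB/c mice, which were 4 to 6 weeks old when purchased. The swimming group (n = 6 tumors) swam 2 times per day on 6 days per week for 3 weeks, in sessions extended up to 30 min. The control group (n = 6 tumors) carried the same tumors and had no swimming training. RNA of tumor tissue was sequenced after removal of ribosomal RNA, to ask which genes differ in tumors of mice that swim. Expression is given as FPKM (fragments scaled by transcript length and by the mapped fragments of the tumor). Division by length lets levels be set side by side between genes. For genes whose exons overlap those of another gene, such as Sept2 and Sept5, the level also depends on how shared reads were divided.

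Septins are GTP-binding proteins of the cytoskeleton. Members of different subgroups join into rod-shaped complexes, and the rods assemble end to end into filaments, rings and cage-like structures beneath the plasma membrane. They are known for work at the cleavage furrow of dividing cells, as scaffolds on actin and microtubules, and as barriers that limit diffusion in membranes. Of the 7 genes, the SEPT2 subgroup holds Sept2 and the SEPT6 subgroup holds Sept6, Sept8, Sept10 and Sept11. Sept7 is the sole member of its own subgroup, and Sept9 belongs to the SEPT3 subgroup. Members of 1 subgroup can take each other's place in a rod, whereas Sept7 has no such substitute.

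RefSeq promoter windows (GRCm38.p6, each around an annotated start) were matched for 6 of the 7 members, and Sept6 had no entry. The windows of Sept2 and Sept8 are shown because these genes had levels that fell apart between tumors. Capitals mark the GC box, GGGCGG on either strand, the letters bound by the Sp family of transcription factors. Both genes have 2 RefSeq windows on the plus strand. Those of Sept2 overlap, so the upstream one is shown, and it contains the annotated starts of both Sept2 identifiers.
Sept2, upstream start, chr1:93478743-93479042: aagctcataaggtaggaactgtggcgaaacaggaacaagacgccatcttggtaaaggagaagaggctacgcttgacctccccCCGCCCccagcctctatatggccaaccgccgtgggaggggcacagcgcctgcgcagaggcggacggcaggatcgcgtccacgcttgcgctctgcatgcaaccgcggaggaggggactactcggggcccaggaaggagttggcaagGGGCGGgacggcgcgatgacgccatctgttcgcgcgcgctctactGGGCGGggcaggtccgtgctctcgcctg
Sept8, upstream start, chr11:53519486-53519785: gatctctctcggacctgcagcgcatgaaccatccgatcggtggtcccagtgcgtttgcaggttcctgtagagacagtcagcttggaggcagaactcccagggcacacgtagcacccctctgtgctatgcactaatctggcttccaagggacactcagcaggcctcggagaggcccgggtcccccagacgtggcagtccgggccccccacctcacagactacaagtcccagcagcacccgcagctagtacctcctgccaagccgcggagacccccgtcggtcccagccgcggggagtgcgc
Sept8, downstream start, chr11:53519938-53520237: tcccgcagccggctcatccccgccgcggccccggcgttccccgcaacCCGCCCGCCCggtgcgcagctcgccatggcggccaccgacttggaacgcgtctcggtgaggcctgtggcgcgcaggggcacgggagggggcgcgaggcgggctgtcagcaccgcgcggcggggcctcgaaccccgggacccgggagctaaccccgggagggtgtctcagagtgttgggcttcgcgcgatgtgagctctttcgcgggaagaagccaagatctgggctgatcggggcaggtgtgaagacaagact
The Sept2 window shown held 3 GC boxes, and the other, chr1:93478811-93479110, held the same 3, since they lie in the bases that both windows share. The upstream Sept8 window held 0 and the downstream window held 2, which overlap by 2 letters. Of 32851 promoter windows of the same length, 35.7% held at least 1 GC box. The G and C share was 65.7% in the Sept2 window shown and 69.3% in the other, 64.7% in the upstream and 72.3% in the downstream Sept8 window, and the median over all windows was 52.7%, with quartiles of 45.7% and 61.7%. TATAAA, searched on both strands, occurred in 0 of the members' windows and in 13.6% of all windows.

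The depth could not be read from FPKM values as a number of reads. Relative to control 1, the depth was 0.694 in control 2, 0.876 in control 4 and 0.871 to 0.973 in the other tumors. The FPKM values of a tumor summed to 380139 to 407109. Epithelial markers were mostly absent. Of the 9 epithelial genes found in the files, 6 (Epcam, Cdh1, Krt19, Cdx2, Vil1 and Cldn7) were below 1 FPKM in every tumor, whereas Krt20 was at 99.8 to 194 FPKM. Krt8 was at 129 FPKM in control 4 and at 1.86 to 19.9 in the other tumors. Control 1 had the highest summed adipocyte markers, at 187 FPKM, and swimming 5 the highest skeletal muscle markers, at 262 FPKM. Controls 2 and 4 stood apart for Sept2, whose values are given with and without them. The 12 tumors came from different mice. In whole tumor RNA, fewer cells of a type and less RNA per cell cannot be told apart.

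Sept2 was the most strongly expressed septin (Ensembl ENSMUSG00000026276, chr1:93478964-93510260, and ENSMUSG00000116048, chr1:93478993-93509733, GRCm38, both on the plus strand). In dividing cells it lies at the contractile ring, where it binds non-muscle myosin. The annotation gives 13 transcripts to the first identifier and 3 to the second. All 3335 exonic bases of the second identifier are also exonic in the first, and it has 0 exonic bases of its own. The first has 7979 exonic bases, of which 4644 are its own. Reads of the shared 3335 bases therefore cannot be told apart between the identifiers, and how they were divided is part of the deposited values.

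**Figure D1:**
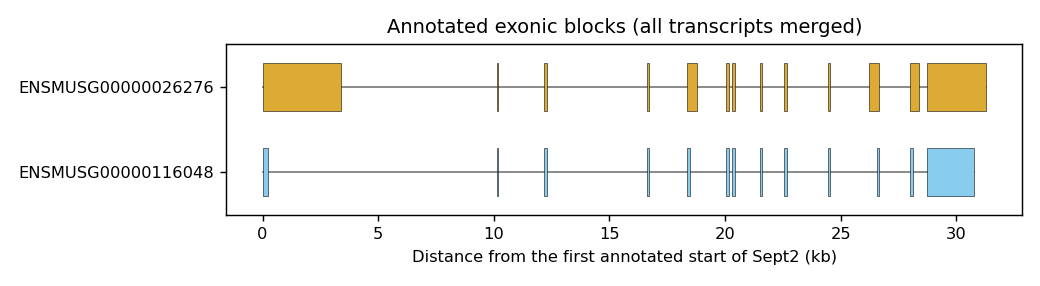
Exonic blocks of the 2 Sept2 identifiers, all annotated transcripts merged, against the distance in kb from the first annotated start. Each box of the lower row lies within a box of the upper row, and the upper row has 4644 exonic bases that the lower row lacks.

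ENSMUSG00000116048 was at 60.8, 3.02, 65.8, 20.7, 57.1 and 57.6 FPKM in controls 1 to 6. In the 6 swimming tumors it was at 67.1, 66.1, 65.1, 71.2, 71.6 and 67.9 FPKM. Controls 2 and 4 were far below the rest, and control 3 lay within the range of the swimming group. ENSMUSG00000026276 was at 3.76, 32.5, 4.50, 26.1, 8.51 and 8.77 FPKM in the controls. In the swimming group it lay between 4.30 and 4.94 FPKM, with a median of 4.85. Here controls 2 and 4 were far above the rest, and controls 1 and 3 were near or below the swimming tumors.

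The second identifier held 93.0% to 94.3% of the Sept2 sum in the 6 swimming tumors. It held 94.2% in control 1, 93.6% in control 3, 87.0% in control 5 and 86.8% in control 6. In control 4 its share was 44.2%, and in control 2 it was 8.51%. The share thus ranged over 85.8 percentage points. Over the 15 symbols listed under 2 overlapping identifiers at a summed mean of at least 1 FPKM, the median range was 16.6 points. Gm26413 and Gm22711, both near 1.5 FPKM, were the 2 symbols with a range above that of Sept2.

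**Figure D2:**
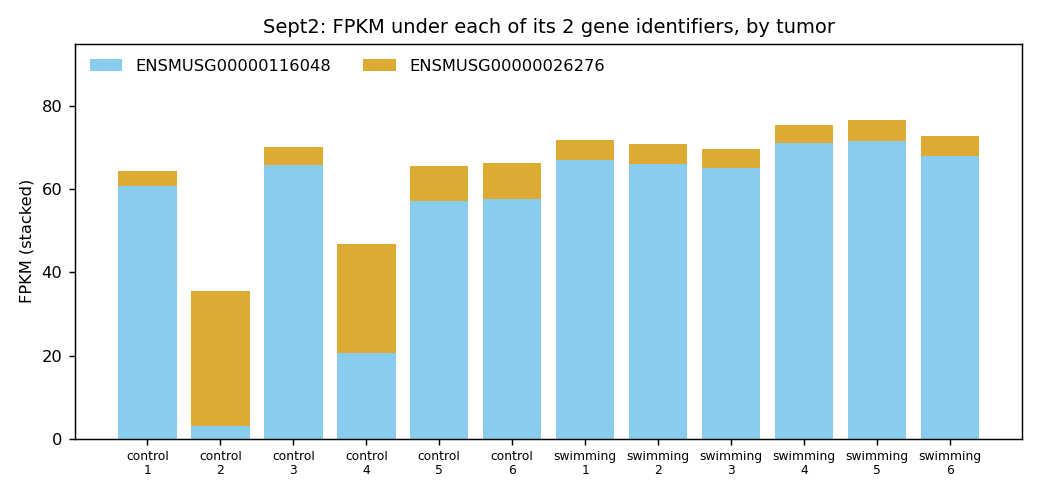
Stacked FPKM of the 2 Sept2 identifiers in each of the 12 tumors. The blue part is ENSMUSG00000116048 and the yellow part ENSMUSG00000026276. The blue part made up 8.51% of the bar in control 2 and 44.2% in control 4, and at least 86.8% in the other 10 tumors.

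Summed over both identifiers, Sept2 was at 64.5, 35.5, 70.3, 46.8, 65.6 and 66.4 FPKM in the controls and at 71.8, 71.0, 69.7, 75.5, 76.6 and 72.9 FPKM in the swimming group. Controls 2 and 4 were also the lowest tumors in the sum. All 6 swimming tumors were above the control median of 65.1, while control 3 lay above the lowest swimming tumor, so the groups overlapped. Each identifier was divided by its own length before deposit, so the sum is not the value that a single joint gene model would give.

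The control mean of the sum was 58.2 ± 13.8 FPKM (SD, n = 6) and the swimming mean 72.9 ± 2.66. On the log2(FPKM + 1) scale, swimming minus control was 0.36 with a standard error of 0.14. By identifier, the difference was 1.08 (standard error 0.57) for ENSMUSG00000116048 and -0.99 (standard error 0.42) for ENSMUSG00000026276, which are opposite in sign. Without controls 2 and 4, the 4 remaining controls had a summed mean of 66.7 ± 2.50 FPKM. The difference was then 0.13 for the sum, 0.18 for ENSMUSG00000116048 and -0.29 for ENSMUSG00000026276. Control 2 had the lowest relative depth of all tumors, at 0.694, while control 4, at 0.876, was close to swimming 4 at 0.871. Whether depth had a part in the Sept2 values was not tested. Other signs of RNA quality were not analysed here.

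The SEPT6 subgroup was measured as 4 members, and Sept8 was the one that varied most (ENSMUSG00000018398, chr11:53519257-53549565, plus strand, 7 transcripts of 500 to 4563 bases, no exon shared with another gene). Sept8 is known from platelets and neurons, where it takes part in the release of vesicles. It was at 34.2, 30.6, 34.0, 11.9, 32.6 and 12.6 FPKM in controls 1 to 6. In the swimming group it was at 13.7, 13.0, 13.5, 31.1, 16.4 and 31.5 FPKM. The tumors thus stood at 2 levels, with 6 tumors between 30.6 and 34.2 FPKM and 6 between 11.9 and 16.4.

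Of the 6 high tumors 4 were controls and 2 were swimming tumors. The gap between the levels was 0.86 on the log2(FPKM + 1) scale. Among the 5361 genes with a mean of at least 10 FPKM, 62 (1.16%) had a gap that large with at least 2 tumors on each side. The tumors with a low Sept8 level were not those with an unusual Sept2, since control 2 was high for Sept8 and control 4 low. The means were 26.0 ± 10.7 FPKM in the controls and 19.9 ± 8.94 in the swimming tumors, a log2 difference of -0.35 (standard error 0.33). The difference did not pass the test (limma, adjusted p = 0.934 over all 19018 genes tested, exact permutation p = 0.459). Without control 4, its lowest tumor, it was -0.54 (limma adjusted p = 0.998). Transcript values were not analysed here, so which of the 7 transcripts made up each level was not tested.

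Sept11 varied least of the 7 members, with a coefficient of variation of 8.07% over the 12 tumors against 43.3% for Sept8. It is known from the synapses of neurons and from phagocytosis (ENSMUSG00000058013, chr5:93093437-93176447, plus strand). Its lowest, median and highest values were 23.6, 28.2 and 30.2 FPKM in the controls and 27.3, 29.6 and 33.3 FPKM in the swimming tumors. The ranges overlapped, with 5 of the 6 swimming tumors above the control median. The log2 difference was 0.11 (standard error 0.06, limma adjusted p = 0.899, exact permutation p = 0.117), and 0.061 without control 6, the lowest tumor.

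Sept10, a widely expressed member (ENSMUSG00000019917, chr10:59141627-59221847, minus strand), ranged from 10.6 to 14.1 FPKM in the controls, with a median of 12.5. In the swimming tumors it ranged from 11.4 to 13.8 with a median of 13.0. The swimming values lay within the control range. The log2 difference was 0.03 (standard error 0.08, limma adjusted p = 0.979), and it was -0.016 without control 4, the lowest control, so its sign rests on that tumor.

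Sept6, the member after which the subgroup is named, was the weakest of the 7 (ENSMUSG00000050379, chrX:36911326-36991794, minus strand). Its lowest, median and highest values were 2.01, 2.50 and 2.72 FPKM in the controls and 2.24, 2.67 and 2.86 FPKM in the swimming tumors. The ranges overlapped, and 5 of 6 swimming tumors were above the control median. The log2 difference was 0.07 (standard error 0.07, limma adjusted p = 0.935), and 0.029 without control 5, the lowest tumor. An antisense gene, Gm15008, overlaps 308 bases, or 3.12%, of its exons and was not among the genes listed for the tumors. The sources used here do not say that the counting used strand, so reads of those bases cannot be told apart between the pair.

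Sept7, the subunit with no substitute (ENSMUSG00000001833, chr9:25252439-25308571, plus strand), was at 12.4, 14.3, 14.9, 20.9, 15.0 and 18.9 FPKM in controls 1 to 6. In the swimming group it was at 14.0, 13.3, 13.2, 14.8, 14.8 and 12.7 FPKM. Controls 4 and 6 were the highest, and the 6 swimming tumors were all below the control median of 15.0 yet not below control 1. The means were 16.1 ± 3.18 and 13.8 ± 0.872 FPKM. The log2 difference of -0.18 (standard error 0.10) did not pass the test (limma adjusted p = 0.896, exact permutation p = 0.147). Without control 1, its lowest tumor, the difference was -0.25 with an unadjusted limma p of 0.0208 and an adjusted p of 0.742. Without control 4, its highest tumor, the difference was -0.11 (limma adjusted p = 0.998). A pseudogene on the opposite strand, Gm48272, shares 245 exonic bases with Sept7 and was at a mean of 0.164 FPKM.

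Sept9 binds next to Sept7 in the longer rods and is needed for the last step of cell separation, and the methylated SEPT9 gene is a blood marker of colorectal cancer in people (ENSMUSG00000059248, chr11:117199661-117362325, plus strand, 10 transcripts). Its values were 21.6, 22.4, 27.6, 27.3, 29.5 and 25.4 FPKM in the controls. In the swimming group they were 27.0, 26.2, 25.5, 32.3, 26.8 and 32.1 FPKM. Swimming 4 and 6 were the highest and controls 1 and 2 the lowest, and the other 8 tumors lay between 25.4 and 29.5 FPKM. The log2 difference was 0.14 (standard error 0.09, limma adjusted p = 0.899, exact permutation p = 0.149).

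**Figure D3:**
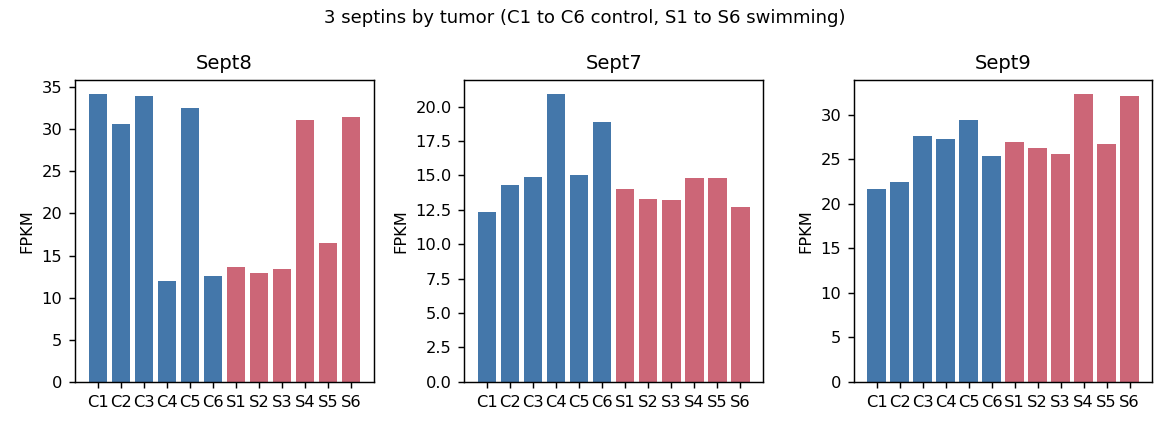
FPKM of Sept8, Sept7 and Sept9 in each tumor, controls in blue and swimming tumors in red. Sept8 stands at 2 levels with tumors of both groups at each, controls 4 and 6 are the highest for Sept7, and swimming 4 and 6 are the highest for Sept9.

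None of the 6 members other than Sept2 passed the test between the groups. Of the 6, 0 had a limma adjusted p below 0.05 and 0 had an unadjusted p below 0.05. Over all 19018 genes tested, 0% had an adjusted p below 0.05 and 5.56% an unadjusted p below 0.05. The log2 difference was above 0 for 4 of these members and below 0 for 2, with a median of 0.05, against 0.00387 over all genes tested. The values of the groups overlapped for all 7 members, and 0.147% of all genes had groups that did not overlap. Sept2 is included in that count although it was chosen on this contrast. Summed marker levels of other cell types overlapped between the groups, but the groups were not alike in all of them. T and NK cell markers were at 14.5 to 32.7 FPKM in the controls and 14.8 to 40.1 in the swimming tumors. As a mean log2 score, each marker centred over the tumors, they averaged -0.17 in the controls and 0.17 in the swimming tumors. The highest control was control 3 at 0.05. Swimming 1 was at -0.32 and the other swimming tumors were at 0.13 to 0.48. The part of these cell types in the septin values was not tested.

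**Figure D4:**
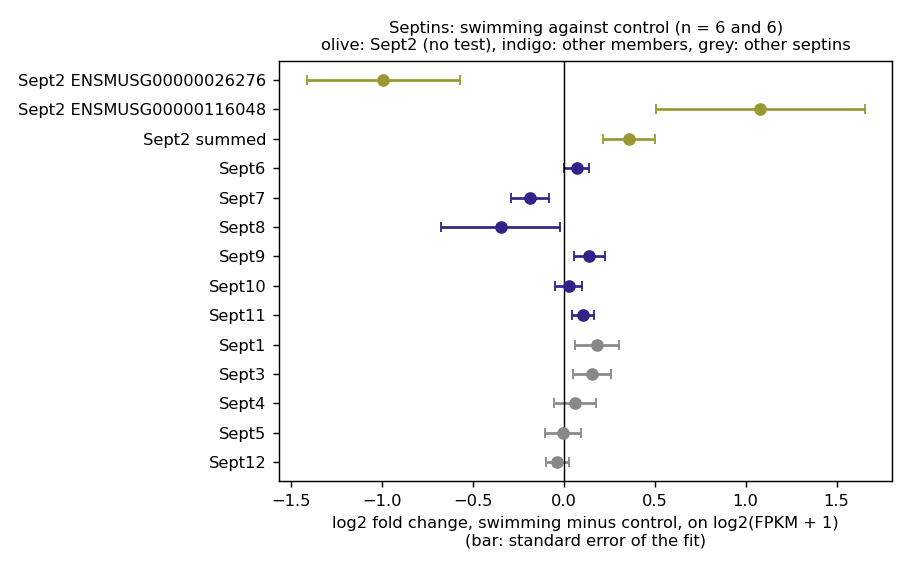
Difference between the swimming and control groups for each septin, on the log2(FPKM + 1) scale, with the standard error of the limma fit as bars (n = 6 tumors per group). The 2 Sept2 identifiers lie on opposite sides of 0 at -0.99 and 1.08, and the other members lie between -0.35 and 0.14.

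In order of mean FPKM over the 12 tumors, Sept2 (summed, 65.5) was followed by Sept11 (28.9), Sept9 (27.0), Sept8 (22.9), Sept7 (14.9), Sept10 (12.6) and Sept6 (2.56). Sept2 was above Sept11 in 12 of 12 tumors, and Sept10 was above Sept6 in 12 of 12. Sept7 was above Sept10 in 11 of 12. Neighbours between these were less clearly ordered. Sept11 was above Sept9, Sept9 above Sept8 and Sept8 above Sept7 in 8 of 12 tumors each, so their order was within the spread. Sept2 made up 24.0% of the summed FPKM of the members in control 2 and 31.4% in control 4, and 35.3% to 42.5% in the other tumors. These shares use the sum of its 2 identifiers, which is not the value of a single joint gene model. In controls 2 and 4, ENSMUSG00000026276 held 91.5% and 55.8% of that sum. The share of Sept8 ranged from 7.70% to 20.7%, and that of Sept7 from 6.60% to 14.0%.

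The 6 other septins of the files were lower, apart from Sept5. Sept5, known from neurons and platelets, was at 13.8 to 21.6 FPKM, a mean of 16.9, above that of Sept7. Its exons overlap those of Gp1bb over 48.6% of their length and those of Gm49601 over 56.3%, so its level is uncertain. Sept1, known from lymphocytes, was at 1.36 to 3.11 FPKM, and Sept4 at 1.06 to 2.27. The neuronal Sept3 reached 0.681 FPKM and Sept12, a septin of the testis, 0.339. Sept14, also of the testis, did not exceed 0.148 FPKM and did not pass the filter. Of the 5 that were tested, 0 passed an adjusted or unadjusted p of 0.05 in limma, against 0% and 5.56% of all genes tested, with log2 differences of -0.04 to 0.18.

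**Figure D5:**
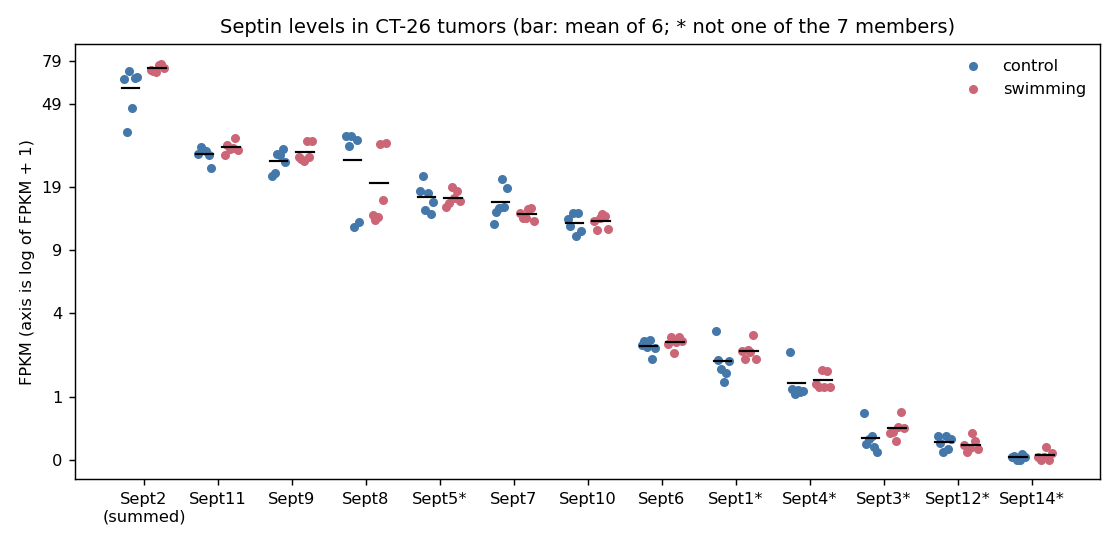
FPKM of the 13 septins in 6 control (blue) and 6 swimming (red) tumors on a log axis of FPKM + 1, with the group mean as a bar and an asterisk for septins other than the 7 members. Sept2, Sept11, Sept9, Sept8, Sept5, Sept7 and Sept10 lie above 10 FPKM and the other 6 below 4, and Sept8 stands at 2 levels in both groups.

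Septin rods combine subgroups, so the levels of their members were also compared as ratios within a tumor. The log2 ratio of Sept9 to Sept7 was 0.81, 0.65, 0.89, 0.39, 0.97 and 0.43 in controls 1 to 6. It was 0.94, 0.98, 0.95, 1.13, 0.85 and 1.34 in the swimming group. All 6 swimming tumors were above the control median, with controls 3 and 5 within their range. The mean was 0.69 ± 0.24 in the controls and 1.03 ± 0.17 in the swimming tumors, a difference of 0.34 (exact permutation p = 0.0173). Adjusted over the 3 ratios tested, p was 0.0519, which does not pass 0.05. The 3 include the ratio without Sept8 given below, which was not planned and was chosen after the data were seen. An adjustment over the planned ratios alone was not made. Without controls 2 and 4 the difference in Sept9 over Sept7 was 0.26, with an exact permutation p of 0.0714.

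The sum of the SEPT6 subgroup also counted Sept14, which did not exceed 0.148 FPKM. This sum over Sept7 had a mean log2 ratio of 2.10 ± 0.56 in the controls and 2.23 ± 0.20 in the swimming tumors (exact permutation p = 0.567). Without Sept8, a choice made after its 2 levels were seen, the ratio was 1.43 ± 0.35 and 1.72 ± 0.07, a difference of 0.28 (exact permutation p = 0.0736, adjusted p = 0.110). All 6 swimming tumors were above the control median in this ratio, at 1.60 to 1.78. Controls 4 and 6, the tumors highest in Sept7, were the lowest of all in this ratio, at 1.01 and 0.99. The log2 ratio of summed Sept2 to Sept7 was 1.84 ± 0.50 and 2.40 ± 0.06, given with no test.

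No pair of members was related across tumors beyond the adjusted threshold. Sept2 and Sept8 fell into separate levels, so no correlation with other members or marker scores is given for them. Among the 10 pairs of the other 5 members, Pearson's r ranged from -0.43 to 0.53, and the smallest p adjusted over all 21 pairs computed was 0.527 (permutation test). Sept6 and Sept11 had the highest r, 0.53 (permutation p = 0.0834), with Spearman's rho of 0.61 (permutation p = 0.0391, adjusted p = 0.411). It was 0.83 without control 5 and swimming 3, the tumors farthest from the median of Sept6. Within the groups r was 0.39 in the controls and 0.52 in the swimming tumors. Of the 10 pairs, 5 changed sign when the 2 farthest tumors were left out.

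The members were also set against summary scores of 10 marker lists, which gave 70 relations. Of the 50 that do not involve Sept2 or Sept8, 6 had an unadjusted permutation p below 0.05 for r. None had an adjusted p below 0.05 for r or rho. The share of all genes related to these scores was not computed, so the 6 have nothing to be set against. The choice of r matters, since other relations had an unadjusted permutation p below 0.05 for rho only. These were Sept11 with epithelial markers (rho = -0.66, permutation p = 0.0215) and Sept6 with macrophage markers (0.69, 0.0155) and proliferation genes (0.64, 0.0281). Sept11 was related to the score of proliferation genes with r = 0.70 (permutation p = 0.0114, adjusted p = 0.310) and rho = 0.83 (permutation p = 0.00144, adjusted p = 0.101). It was 0.70 without swimming 4 and 5, and 0.64 and 0.73 within the control and swimming groups. With the score of T and NK cell markers, Sept11 had r = 0.66 (permutation p = 0.0177, adjusted p = 0.310) and rho = 0.74 (permutation p = 0.00807, adjusted p = 0.282). It was 0.52 without control 5 and swimming 5, and 0.26 and 0.84 within the groups. Sept7 was related to the score of epithelial markers with r = 0.73 (permutation p = 0.0145, adjusted p = 0.310), but rho was 0.34 and r was 0.45 without control 4 and swimming 5. Within the groups r was 0.82 in the controls and -0.55 in the swimming tumors. Sept10 had the opposite sign with the same score, r = -0.62 (permutation p = 0.0152, adjusted p = 0.310) and rho = -0.41 (permutation p = 0.184). It was -0.28 without control 4 and swimming 5, and -0.81 and -0.14 within the groups. Sept9 had r = -0.59 with fibroblast markers (permutation p = 0.0419, rho = -0.58) and -0.60 with endothelial markers (permutation p = 0.0358, rho = -0.55), both with an adjusted p of 0.489. Without control 1 and swimming 5 these were -0.51 and -0.50. Within the controls they were -0.98 and -0.83, and within the swimming tumors -0.25 and -0.54. Control 4, the highest tumor for Sept7, was also the tumor with the high level of Krt8, a keratin of simple epithelia. The epithelial score rests on 5 of the 10 listed genes, Krt8 among them.

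Proteins that bind or regulate septins included strongly expressed genes, and none passed the limma test between the groups. Of the 18 genes of this list, 0 had an adjusted or unadjusted p below 0.05 in limma, against 5.56% of all genes unadjusted. Their log2 differences were above 0 for 11 and below 0 for 7, with a median of 0.03. In the exact permutation test of single genes, 1 of the 18, Mapre1, had an unadjusted p of 0.0325, and it is named after its values were seen. The share of all genes that pass in that test was not computed, so this count has nothing to be set against. Mapre1, which binds growing microtubule ends, was at 28.6 ± 1.18 and 30.8 ± 1.81 FPKM, with 5 of 6 swimming tumors above the control median. Cdc42, the GTPase whose effector proteins bind septins, was at 120.1 ± 2.68 FPKM in the controls and 123 ± 5.88 in the swimming tumors. Myh9, the heavy chain of non-muscle myosin that Sept2 binds, was at 81.9 ± 5.18 and 83.5 ± 4.71.

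Of the 24 genes of the cytokinesis machinery, which divides the cell at the site where septins gather, 0 passed the adjusted test. With an unadjusted limma p below 0.05, 3 were higher and 0 lower in the swimming group, against 591 higher and 467 lower of all 19018 genes tested, or 5.56%. These were Kif4, a kinesin of the spindle midzone, at 12.1 ± 0.773 FPKM in control and 14.0 ± 1.31 in swimming tumors, Cit, the citron kinase of the midbody, at 2.90 ± 0.376 and 3.49 ± 0.416, and Kif14, a kinesin that recruits citron kinase, at 3.22 ± 0.290 and 3.89 ± 0.705. Their unadjusted p in limma was 0.0109, 0.0337 and 0.0479, and the adjusted p was 0.889 for each. The log2 difference was above 0 for 20 of the 24 and below 0 for 4, with a median of 0.12. Over all genes tested, 9832 were above 0 and 9186 below, with a median of 0.00387. The most strongly expressed genes of the list were Chmp4b, a subunit of the complex that cuts the last membrane bridge, at 96.6 ± 4.24 and 100.3 ± 3.50 FPKM, and the GTPase Rhoa at 60.7 ± 2.02 and 59.6 ± 0.998. The summed level of 10 proliferation genes ranged from 408 to 478 FPKM in the controls and from 424 to 554 FPKM in the swimming tumors. Whether it had a part in these values was not tested.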

How the data were processed

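Libraries were depleted of ribosomal RNA by the authors, who aligned reads by HISAT2 2.0.5 and estimated gene levels by StringTie 1.3.3. The authors' methods name the human build hg38 and the submitters' processing notes list hg38 and GRCm38, while the gene identifiers are those of mouse. The deposited values are FPKM per gene, 1 file per tumor, already divided by length and depth, so the division of reads between overlapping genes is part of them. Read numbers are unknown, so counting error is not given. Depth relative to control 1 was read from the step between the values of weakly expressed genes. Groups are those of the sample labels.

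Gene names, coordinates and exons are from GENCODE M21 on GRCm38, matched by identifier (30542 of 30630 identifiers named). Genes that reached 0.1 FPKM in 6 or more tumors (19018) were compared on log2(FPKM + 1) by lmFit and eBayes with trend in limma 3.58.1 (R 4.3.3) with Benjamini-Hochberg adjustment. The fit of summed Sept2 replaced its 2 identifiers with 1 row. Fold changes on this scale understate those of weakly expressed genes. Single genes and ratios of FPKM were tested by exact permutation (two-sided, 924 divisions of the tumors), whose smallest p is 0.00216. Correlations used log2(FPKM + 1) and 100000 permutations. A marker score is the mean over the tested markers of log2(FPKM + 1), each centred on its mean over the tumors. The fit was checked on simulated data. Python 3.11.15, pandas 2.3.3, scipy 1.17.1 and matplotlib 3.10.9 were used.

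The members, lists and marker genes were chosen with earlier results of these data known. Named beside the members are list genes with an unadjusted p below 0.05, the 2 genes of highest mean level per list, all other septins, and for each member the 2 genes of highest r. For Sept7 and Sept11, 1 of the 2 is not reported here. Alternatives were other pseudocounts, filters and scalings, no trend, the replicate number as a block and each tumor left out.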

Additional observations from a re-analysis of the deposited data

Results flagged for a closer look

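In 60 groups of 6 tumors, of septin levels, marker scores, the 4 subgroup ratios and the Sept2 share, 8 held a highest tumor that stood apart from its group by Dixon's ratio. Chance alone gives about 1 in 20 groups, which is 3 of 60. Control 1 stood apart for Sept1 at 3.11 FPKM (other controls 1.36 to 1.98), for Sept3 at 0.676 FPKM (other controls 0.0852 to 0.293) and for Sept4 at 2.27 FPKM (other controls 1.06 to 1.18). The same tumor stood apart in the B cell marker score at 0.95 (other controls -0.20 to -0.07) and in the adipocyte marker score at 2.61 (other controls -0.72 to -0.01), both as mean log2 differences from the average over tumors.

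Swimming 5 stood apart for Sept1 at 2.92 FPKM (other swimming tumors 2.01 to 2.33), in the macrophage marker score at 0.43 (others -0.12 to 0.01) and in the B cell marker score at 0.22 (others -0.13 to -0.03). It also had the highest summed skeletal muscle markers, at 262 FPKM. None of the 7 members had a tumor flagged in this way. In Sept2 and Sept8 more than 1 tumor lay apart from the rest, which this ratio does not detect. The B cell score rests on 3 of the 6 listed genes, and 4 of the 6 were below 1 FPKM in every tumor. The part of these cell types in the levels of Sept1, Sept3 and Sept4 was not tested.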

How the results depend on the processing

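The log2 differences of Sept2 (each identifier and the sum), Sept6, Sept7, Sept8, Sept9 and Sept11 kept their sign in every alternative run. The lowest adjusted p of Sept6 to Sept11 over all alternatives was 0.665, for Sept11. Sept10 turned to -0.016 without control 4 (0.059 at the highest when 1 tumor was left out) and to -0.039 without controls 2 and 4, a choice made after the data were seen. With 1 tumor left out, summed Sept2 ranged from 0.23 to 0.42, ENSMUSG00000116048 from 0.47 to 1.29 and ENSMUSG00000026276 from -1.25 to -0.68, where the values nearest 0 were those without control 2. Without controls 2 and 4 the summed value was 0.13.

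The number of genes with a limma adjusted p below 0.05, 0 of 19018, ranged from 0 to 3 with 1 tumor left out. It was 3 without control 4, 2 without swimming 1, and 1 without controls 2 and 4. The number with an unadjusted p below 0.05, 1058, ranged from 833 to 1443 with 1 tumor left out. It was 1445 of 30630 with no filter and 729 of 12737 with a filter of 1 FPKM.

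The difference in Sept9 over Sept7 ranged from 0.28 to 0.40 with 1 tumor left out (exact permutation p 0.00433 to 0.0455). It was 0.26 without controls 2 and 4 (exact permutation p = 0.0714), and the 0.34 had an exact sign-flip p of 0.0938 under a replicate block by tumor number, where 0.0312 is the smallest possible. The SEPT6 subgroup over Sept7 ranged from -0.014 to 0.24, at -0.014 without control 4 and -0.0066 without control 6. Without Sept8 it ranged from 0.19 to 0.35, at 0.35 (exact permutation p = 0.0108) without control 1 and 0.32 (p = 0.0476, exact permutation) without control 2. The cause was not tested.

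The same numbers 1 to 6 in both groups do not pair the tumors, which came from different mice. Deviations of same-numbered tumors correlated at -0.32 to 0.00588, and 0 of 12 tumors correlated best with their own number. With the block, 892 genes had an unadjusted p below 0.05 and 0 an adjusted one. FPKM values give no read numbers, so what depth limits could not be measured, and the 2 Sept2 identifiers cannot be separated by exon.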

Other observations

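The genes whose log2(FPKM + 1) was most like that of a member over the 12 tumors, among 12752 genes with a mean of at least 1 FPKM, are given as a description with no test. For ENSMUSG00000116048 they were Kirrel (Pearson's r = 0.97), an adhesion protein of the immunoglobulin superfamily, and Ttc7 (0.93). Kirrel was at 9.37 FPKM in control 2 and 24.5 in control 4, and at 26.5 to 32.5 FPKM in the other tumors, so control 2 was the lowest tumor for both genes. For ENSMUSG00000026276 they were Cfl2, an actin-severing cofilin, and Casc4, both at r = 0.88. Cfl2 was at 13.8 FPKM in control 2 and 11.1 in control 4, above the other tumors. For summed Sept2 they were Gm42977 (0.94) and Kirrel (0.92). Gm42977 was at 0 FPKM in controls 2 and 4 and at 1.65 to 2.40 FPKM in the other tumors. Because Sept2 and Sept8 fell into separate levels, an r given for them can rest on the division between the levels. No r within a level was computed.

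For Sept8 the most alike genes were Gm39822 (r = 0.94) and Brox (0.92). Brox, which binds membrane-remodelling complexes, ranged from 11.4 to 19.6 FPKM, a narrower range than the 11.9 to 34.2 of Sept8. Both genes divided the tumors as Sept8 did. Brox was at 17.3 to 19.6 FPKM in the tumors high for Sept8 and at 11.4 to 13.6 in the low ones. Gm39822 was at 1.49 to 1.70 and 1.12 to 1.28 FPKM. Sept7 was followed by Alg11, a mannosyltransferase of N-glycan assembly (0.93). Sept10 was followed by Tspo, a protein of the outer mitochondrial membrane (0.93), at a mean of 356 FPKM, and by Gsr, glutathione reductase (0.91). Sept11 was followed by Gm9761 (0.89). Sept6 was followed by Ppp1r10 (0.89) and Trim44 (0.85), and Sept9 by Gm48990 (0.88) and Gm15922 (0.83).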
